A study of Mus musculus with 192 samples.

Results

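Immediate early genes are switched on within minutes of a stimulus from transcription machinery that is already in the cell, before any protein has to be made. The 10 genes described here are Fos, Fosb, Jun, Junb, Egr1, Egr2, Ier2, Nr4a1, Arc and Npas4, taken by name from the 54752 genes in the table. Their transcripts were measured by RNA-sequencing in 9 tissues of male C57BL/6 mice, labelled as 12 weeks old, in 4 groups. GC_WT were wild-type (WT) mice kept on the ground, and FL_WT were WT mice flown to the International Space Station. GC_KO and FL_KO were the ground and flown mice without a working Nfe2l2 gene (Nrf2-KO, allele Nfe2l2 tm1Ymk, a germline deletion), which encodes the transcription factor Nrf2. The tissues were cerebrum (Cbr), temporal bone (TpB), mandibular bone (MdB), epididymal white fat (eWAT), interscapular brown fat (iBAT), spleen (Spl), thymus (Thy), liver (Liv) and kidney (Kid). Each group held 6 mice, and 3 in MdB and Kid. Mouse FL04, a flown Nrf2-KO mouse with an intestinal haemorrhage, was left out here. FL_KO therefore had 5 mice, and 2 in MdB. All mice lived in cages of the same type and went through behaviour tests, tail blood sampling and isoflurane anaesthesia before dissection. Flown mice came back by capsule and were dissected in California, and ground mice were dissected in Japan months later. Flight, the return journey, place and date therefore cannot be told apart in any comparison of flown with ground mice.

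The proteins of these genes fall into a few kinds. Fos, FosB, Jun and JunB are leucine zipper proteins that pair into the dimeric transcription factor AP-1, Egr1 and Egr2 are zinc finger transcription factors, and Nr4a1 (Nur77) is an orphan nuclear receptor that also rises in thymocytes after signals through the T cell receptor. Ier2 is a small nuclear protein. Npas4 is a basic helix-loop-helix factor induced by calcium entry into neurons, and Arc is a postsynaptic protein that moves glutamate receptors away from the synapse. Transcription of the group is driven mainly by serum response factor, which binds the CArG box, and by CREB, which binds the cAMP response element. In brain these genes follow neuronal firing, and in other tissues they follow growth factors, stretch, stress hormones and handling, so their level reads the last minutes to hours before a tissue is frozen.

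Promoter windows of 300 bases, from 250 before to 50 after the transcription start, were taken from RefSeq on GRCm38.p6 (mm10), the build of the files, and were found for 7 of the 10 genes. Windows for Egr1, Ier2 and Arc were not used here. Both strands were searched for the CArG box (CC, 6 of A or T, GG), the full cAMP response element TGACGTCA, its core TGACG, and the AP-1 element TGANTCA. The windows of Fos and Fosb are shown because Fos was called most often below and Fosb followed it most closely in TpB, that of Egr2 because it holds a CArG box, and that of Nr4a1 because it holds the most TGACG cores. Capitals mark the CArG box and the core TGACG, which reads CGTCA where it lies on the other strand. Fos lies at chr12:85473640-85473939 on the plus strand, Fosb at chr7:19309996-19310295 on the minus strand, Egr2 at chr10:67537619-67537918 on the plus strand and Nr4a1 at chr15:101266596-101266895 on the plus strand. The Egr2 window is 1 of 5 listed for the gene and starts from a site 2394 bases inside the gene as annotated in GENCODE, and that of Nr4a1 from a site 12577 bases inside.
Fos: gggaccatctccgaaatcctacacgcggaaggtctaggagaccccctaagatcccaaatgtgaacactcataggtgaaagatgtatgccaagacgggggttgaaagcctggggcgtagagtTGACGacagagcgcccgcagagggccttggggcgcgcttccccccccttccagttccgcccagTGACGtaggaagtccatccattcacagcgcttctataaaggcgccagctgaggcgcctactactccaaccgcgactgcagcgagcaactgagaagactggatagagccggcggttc
Fosb: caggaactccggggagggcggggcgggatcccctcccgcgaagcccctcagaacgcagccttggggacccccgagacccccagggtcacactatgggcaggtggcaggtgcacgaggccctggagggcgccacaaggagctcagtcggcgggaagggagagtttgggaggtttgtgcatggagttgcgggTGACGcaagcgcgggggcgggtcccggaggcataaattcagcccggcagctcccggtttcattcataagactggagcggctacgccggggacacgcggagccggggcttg
Egr2: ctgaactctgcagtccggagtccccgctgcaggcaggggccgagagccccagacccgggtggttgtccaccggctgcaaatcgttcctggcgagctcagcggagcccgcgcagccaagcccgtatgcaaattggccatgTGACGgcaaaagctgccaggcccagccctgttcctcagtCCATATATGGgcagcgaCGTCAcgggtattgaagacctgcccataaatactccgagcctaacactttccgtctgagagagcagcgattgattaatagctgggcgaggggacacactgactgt
Nr4a1: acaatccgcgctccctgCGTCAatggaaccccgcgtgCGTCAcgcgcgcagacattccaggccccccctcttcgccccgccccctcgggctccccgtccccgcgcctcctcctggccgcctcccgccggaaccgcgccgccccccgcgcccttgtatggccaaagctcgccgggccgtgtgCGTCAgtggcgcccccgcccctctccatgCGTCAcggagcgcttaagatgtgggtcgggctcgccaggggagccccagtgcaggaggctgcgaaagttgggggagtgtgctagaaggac

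The core TGACG lay 129 and 66 bases before the start of Fos, 60 before Fosb, 106 before Junb, 111 and 55 before Egr2, 233, 213, 69 and 40 before Nr4a1, and 179 and 169 before Npas4. It was thus in at least 1 window of 6 of the 7 genes, where Egr2 has 5 windows and not all of them held it. Of all 32851 promoter windows, counted singly, 20.8% held it, so the count by gene and this share are unlike measures. The CArG box was found 72 bases before the start in the Egr2 window shown, and 1.63% of all windows held one. No member window held the full element TGACGTCA (1.79% of all windows) or TGANTCA (7.81%), and no motif searched was found in the Jun window. These matches describe letters in 300 bases only.

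Each library held 12954949 to 16308175 counts, apart from the Thy libraries, which held 8007523 to 10564704 counts and were made from total RNA depleted of ribosomal RNA, whereas the other tissues were sequenced from poly(A) RNA. Nfe2l2 was lower in Nrf2-KO than in WT mice in every tissue (in Liv 43.0 ± 7.74 TPM in GC_WT and 15.4 ± 1.87 in GC_KO, mean ± SD, n = 6 each). The difference was smaller in Spl, at 77.1 ± 4.62 TPM in GC_WT and 64.6 ± 2.95 TPM in GC_KO. The marker list of each tissue was highest in that tissue. The cerebrum list (Slc17a7, Camk2a, Snap25, Neurod6) was also present in TpB, at a summed 355.5 to 2725.41 TPM, against at least 4646.97 in Cbr. In iBAT the skeletal muscle list (8 genes) summed to 7001, 3331 and 8680 TPM in the libraries of FL06, FL08 and FL11, and to at most 69.91 in the other 20. In bulk tissue fewer cells of a type and less RNA per cell cannot be told apart. Jun and Junb overlap genes on the opposite strand (Junos and Prdx2), and since the strand setting of the counting is not given in the sources used here, their values may share reads with these genes.

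The levels of the 10 genes were first compared between tissues of GC_WT mice, in TPM, the share of transcripts in a library after scaling to gene length. Cbr had the highest mean for 7 of the 10 genes. Egr1 (357 ± 40.6 TPM, mean ± SD, n = 6), Arc (247 ± 75.5 TPM) and Nr4a1 (108 ± 30.3 TPM) stood highest there. For Egr1, Arc and Fosb the 6 Cbr libraries lay above every library of the next tissue, and for Fos, Egr2, Nr4a1 and Npas4 they overlapped with TpB.

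Fos averaged 33.1 ± 8.86 TPM in Cbr and 32.1 ± 24.8 TPM in TpB, where single mice ranged from 7.64 to 68.45 TPM. MdB followed with 8.41 ± 0.72 TPM (n = 3), clear of eWAT at 4.58 ± 1.97 TPM. Neighbours from eWAT down to Liv (1.31 ± 1.17 TPM) overlapped. Fosb, the close relative of Fos, was at 25.5 TPM in Cbr, 6.77 TPM in TpB, 2.25 TPM in Spl and 0.11 TPM in Liv. Jun had the narrowest range among tissues of the AP-1 genes, from 58.9 ± 9.03 TPM in eWAT to 6.66 ± 0.99 TPM in Thy, and its levels in eWAT, TpB, MdB, Cbr and Spl overlapped neighbour by neighbour. Junb was highest in Spl (91.7 ± 6.90 TPM) and Cbr (90.8 ± 14.9 TPM), which overlapped, and lowest in iBAT (5.75 ± 1.70 TPM).

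Egr1 in Cbr was far above TpB (30.9 TPM) and Spl (28.5 TPM), and all other tissues were at 14.1 TPM or less. Egr2 ranged from 13.9 TPM in Cbr, 10.96 in TpB, 8.64 in Spl and 6.83 in Thy to 1.73 TPM in eWAT and 0.06 TPM in Liv. Ier2 was highest in Spl (61.7 ± 5.44 TPM), above every TpB library (33.8 ± 3.86 TPM), and Cbr was only sixth in its order with 11.5 ± 1.53 TPM. Nr4a1 spread widely within iBAT (2.75 to 69.06 TPM in 6 mice) and hardly within Thy (16.69 to 21.22 TPM). Arc was at 7.06 TPM in MdB, 5.65 in Thy and 0.0517 in Liv, and Npas4 at 19.5 TPM in Cbr, 7.98 in TpB, 1.73 in Spl and under 1 TPM in the remaining tissues. On CPM, which is not scaled to length, 7 genes were again highest in Cbr, with Junb in and Egr2, then highest in Thy, out. Thy alone was made from RNA depleted of ribosomal RNA, so tissue and kind of library cannot be told apart in its ranks. TpB libraries also held transcripts of the cerebrum list, and the part of brain RNA in the levels and ranks of TpB was not tested.

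**Figure D1:**
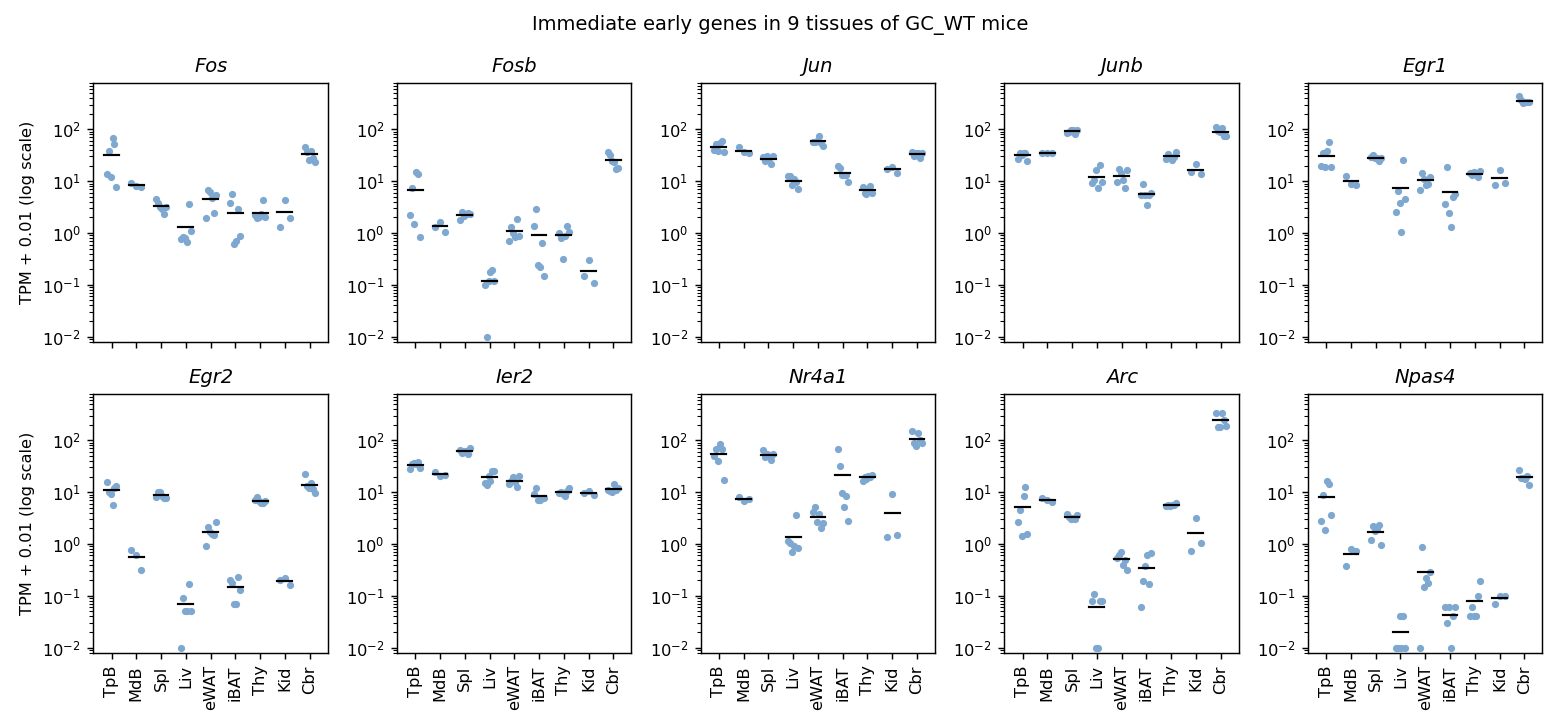
TPM of the 10 genes in GC_WT mice by tissue, each point 1 mouse and each bar the mean, on a log axis after adding 0.01. Egr1, Arc and Nr4a1 stand highest in Cbr (357, 247 and 108 TPM), and Fos in TpB spreads from 7.64 to 68.45 TPM.

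Flown and ground mice were then compared within each genotype. Of the 90 pairs of gene and tissue, 83 passed the filter on low counts (Fosb, Egr2, Arc and Npas4 did not in Liv, nor Npas4 in iBAT, Thy and Kid). Counts were tested with edgeR's quasi-likelihood test, and a gene was called where its p adjusted over all genes tested in the tissue was under 0.05 (adjusted p in what follows). In WT mice 8 pairs were called higher and 1 lower after flight (23 at an unadjusted p under 0.05), and in Nrf2-KO mice 10 pairs rose and 1 fell (26 unadjusted). Over the 9 tissues, 6.54% of all genes tested were called in either direction in WT mice and 8.91% in Nrf2-KO mice. The unadjusted counts, here and below, have no share of all genes beside them and are not read as results about the members. The calls lay in Spl, Liv, eWAT, iBAT and Thy.

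In eWAT of WT mice Fos, Fosb, Junb, Egr1 and Arc, 5 of the 10 genes, rose with flight, where 7.01% of all genes tested were called higher, and the median log2 fold change of the 10 was 0.69 against 0.01 over all genes. In iBAT of WT mice 1 of 9 genes tested was called higher, against 8.85% of all genes, although the median of the 9 was 1.06 against 0.02. Fos rose in Spl (1 of 10, against 1.15% of all genes called higher) and Jun in Liv (1 of 6, against 1.53%). In Thy of WT mice Arc was called lower, 1 of 9, where 11% of all genes were. None of the 39 pairs in TpB, MdB, Kid and Cbr was called in WT mice, and 0.0333% of all genes tested in these tissues were.

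In Nrf2-KO mice 4 of 9 genes (Fos, Fosb, Egr2, Arc) rose in iBAT with flight, where 17% of all genes were called higher, and the median of the 9 was 1.11 against 0.04. Also in Thy, 4 of 9 (Fos, Jun, Ier2, Nr4a1) rose against 19.3% of all genes, and Arc fell, 1 of 9 against 18.9% called lower. Fos was the only member called higher in Spl (1 of 10, against 0.155%) and in eWAT (1 of 10, against 3.88%). No member was called in the other 5 tissues, where 0.595% of all genes were. The shares in iBAT and Thy of Nrf2-KO mice have to be read against the many genes that changed there.

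**Figure D2:**
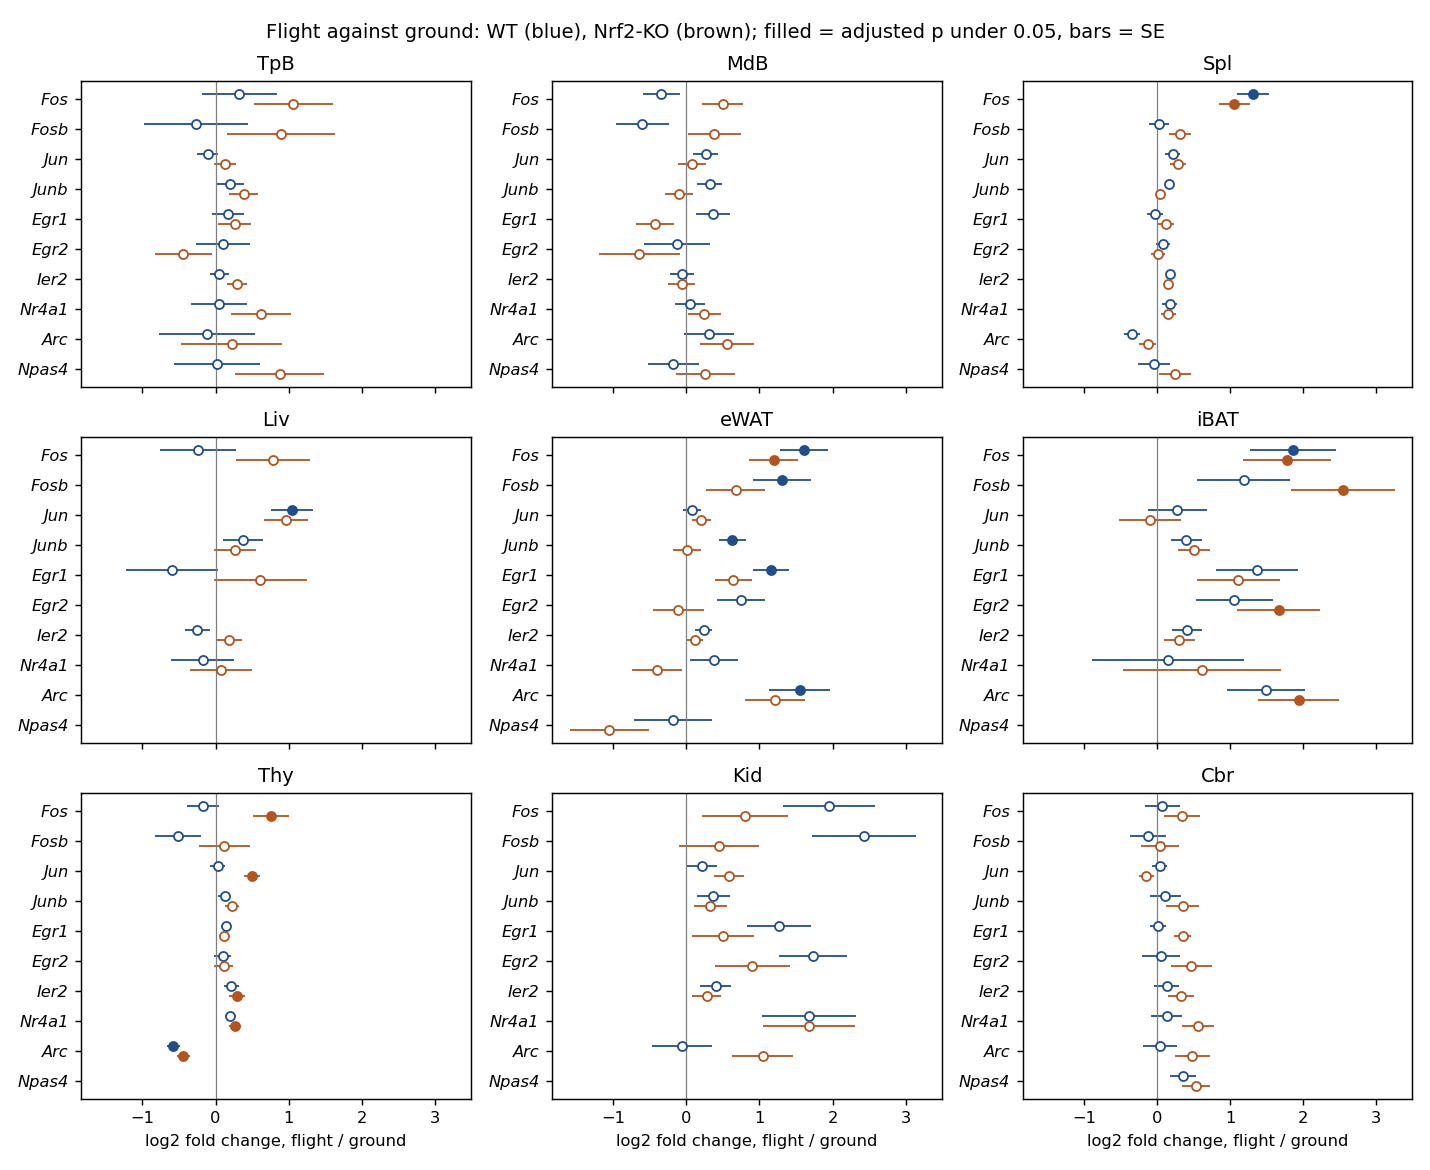
Log2 fold change of flown against ground mice with its SE (edgeR) for the 10 genes in 9 tissues, WT in blue and Nrf2-KO in brown, filled where the adjusted p was under 0.05. Filled points are found in Spl, Liv, eWAT, iBAT and Thy, and Kid has large changes with wide errors and no call.

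TPM values of single mice are given below as the lowest, median and highest of 6 mice, and for FL_KO as the 5 mice FL01, FL02, FL09, FL11 and FL12 in this order. TPM was itself shifted in flown mice, taken as the median change of log2(TPM + 1) over genes with a mean of at least 5 TPM in a group. The shift was 0.31 (WT) and 0.43 (Nrf2-KO) in iBAT, 0.18 and 0.16 in Thy, and 0.19 and 0.10 in TpB. It was 0.08 and 0.15 in Liv, and 0.09 in eWAT of WT mice. This median is not the exact offset between TPM ratios and edgeR fold changes of a member. TPM values of single mice, their overlap between groups and ratios of mean TPM in these tissues include that shift. The edgeR fold changes do not. How many of all genes do not overlap between groups was not counted.

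Fos (chromosome 12, 85473890 to 85477273 in GENCODE on mm10, as all positions below), the partner of Jun in AP-1, was called most often. In Spl it was at 2.28, 3.23 and 4.60 TPM in GC_WT and 6.11, 8.30 and 10.21 TPM in FL_WT. Each FL_WT mouse was above each GC_WT mouse, and the mean TPM was 2.50-fold higher (log2 fold change 1.31 ± 0.22 SE, adjusted p = 0.00345). In Nrf2-KO mice Spl held 3.94, 6.19 and 12.11 TPM on the ground and 20.43, 15.27, 13.11, 10.86 and 10.53 TPM after flight, and 3 of 5 flown mice were above the highest ground mouse (2.0-fold, 1.05 ± 0.21, adjusted p = 0.0166). This call was lost without FL01, GC09 or GC11 (adjusted p up to 0.0713) and with only the Nrf2-KO groups in the fit (adjusted p = 0.112). The erythroid list of Spl moved the other way, from 6686.81 to 25654.4 TPM in GC_WT to 1279.48 to 5395.99 TPM in FL_WT and from 8010.01 to 38334.0 in GC_KO to 2466.52 to 4131.09 in FL_KO (7 genes summed). The smooth muscle list (4 genes) moved with Fos, from 148.62 to 221.55 TPM in GC_WT to 231.64 to 358.75 TPM in FL_WT without overlap, and from 167.06 to 228.21 TPM in GC_KO to 182.13 to 270.78 TPM in FL_KO with overlap. The part of these lists in the result was not tested.

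In eWAT, Fos stood at 1.95, 5.06 and 6.67 TPM in GC_WT and 7.07, 13.9 and 23.88 TPM in FL_WT, again with no overlap (3.29-fold, 1.61 ± 0.33, adjusted p = 0.00224). GC_KO had 3.31, 7.03 and 10.05 TPM and FL_KO 12.82, 23.94, 6.55, 18.7 and 15.92 TPM, with 4 of 5 flown mice above all ground mice (2.28-fold, 1.19 ± 0.33, adjusted p = 0.0294). The Nrf2-KO call was lost without any 1 of FL02, FL11, FL12, GC02, GC04 or GC09 (adjusted p up to 0.10), and was 0.0559 with limma on log2(TPM + 1). In iBAT, Fos was at 0.61, 1.87 and 5.78 TPM in GC_WT, at 4.98, 8.83 and 23.35 TPM in FL_WT, at 0.50, 2.08 and 6.19 TPM in GC_KO and at 16.4, 4.86, 6.35, 23.87 and 7.23 TPM in FL_KO. The highest mouse in FL_KO was FL11, 1 of the 3 libraries with skeletal muscle transcripts. Fos was 4.57-fold higher after flight in WT (1.86 ± 0.59, adjusted p = 0.0301) and 4.63-fold in Nrf2-KO mice (1.78 ± 0.61, adjusted p = 0.0274). Without the 3 libraries with skeletal muscle transcripts the changes were 1.24 (adjusted p = 0.169) and 1.41 (adjusted p = 0.0767), and neither was called. Leaving out single mice ended the WT call in 5 of 23 fits (without FL06, GC06, GC07, GC08 or GC10) and the Nrf2-KO call in 5 (without FL01, FL11, GC01, GC02 or GC09), with adjusted p up to 0.0898.

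In Thy, Fos was at 1.93, 2.13 and 4.28 TPM in GC_WT and 1.65, 2.29 and 4.77 TPM in FL_WT, which overlapped throughout (-0.17 ± 0.22, adjusted p = 0.612). GC_KO mice were lower, at 0.95, 1.31 and 1.74 TPM, and FL_KO at 3.97, 2.46, 2.27, 3.34 and 2.16 TPM lay above all of them (2.06-fold, 0.76 ± 0.24, adjusted p = 0.0154, and 0.0509 without FL01). The macrophage list (5 genes) moved in the same direction in Thy, from 67.68 to 108.35 TPM in GC_KO to 127.9 to 175.91 TPM in FL_KO, and also in WT mice, where Fos was not called, from 91.03 to 120.7 TPM to 117.41 to 238.71 TPM. The smooth muscle list was at 8.71 to 14.8 TPM in GC_KO and 14.37 to 18.9 TPM in FL_KO. The part of these lists in the result was not tested.

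Fosb (chromosome 7, 19302696 to 19310051) encodes a Fos-like partner of Jun. In eWAT of WT mice it rose from 0.70, 0.94 and 1.85 TPM to 1.24, 2.95 and 4.69 TPM, with 4 of 6 flown mice above the ground range (2.68-fold, 1.31 ± 0.40, adjusted p = 0.0329), a call that was lost in 8 of 23 fits without 1 mouse (each of GC03, GC06, GC07, GC10, FL03, FL05, FL06 and FL10, adjusted p up to 0.0769). In eWAT of Nrf2-KO mice it was at 0.66, 1.54 and 3.12 TPM on the ground and 1.29, 4.42, 1.52, 3.10 and 3.38 TPM after flight and was not called. In iBAT of Nrf2-KO mice Fosb was at 0.16, 0.44 and 0.80 TPM on the ground and 7.72, 2.75, 0.88, 2.50 and 1.16 TPM after flight. All flown mice were above all ground mice there, and the fold was the highest of all calls (7.23-fold, 2.54 ± 0.71, adjusted p = 0.00847, and 0.0598 without FL01, where the change was 1.71). Without the libraries with skeletal muscle transcripts it was 2.62 (adjusted p = 0.0119).

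Jun (chromosome 4, 95049034 to 95052222), the central subunit of AP-1, rose in Liv of WT mice and in Thy of Nrf2-KO mice. In Liv it was at 7.15, 10.4 and 12.63 TPM in GC_WT and at 13.82, 21.4 and 32.94 TPM in FL_WT, with no overlap (2.13-fold, 1.04 ± 0.29, adjusted p = 0.0478). The adjusted p rose above 0.05 in 16 of 23 fits without 1 mouse, up to 0.111, while the change stayed between 0.86 and 1.17. With no filter on low counts the adjusted p was 0.0611. The 7 fits that kept it left out GC01, GC02, GC12, FL01, FL07, FL10 or FL12. GC_KO held 6.72, 12.6 and 22.87 TPM and FL_KO 42.01, 34.86, 23.11, 30.55 and 16.24 TPM, with 4 of 5 flown mice above every ground mouse (2.14-fold, 0.97 ± 0.30, adjusted p = 0.0810, not called). The same change was called by DESeq2 (adjusted p = 0.0306) and by limma on log2(TPM + 1) (adjusted p = 0.00869). In edgeR with the mouse number as a block it had an SE of 0.11 and was called (adjusted p = 0.00101). Flown and ground mice of 1 number are different animals, and pairing them in Liv was chosen from these same data. The smaller SE of the blocked fit is therefore no separate support. In Thy, Jun was at 4.23, 5.46 and 6.09 TPM in GC_KO and 9.58, 10.07, 8.65, 8.40 and 9.10 TPM in FL_KO, with no overlap (1.70-fold, 0.50 ± 0.11, adjusted p = 0.000741). In WT mice it was at 5.65, 6.47 and 7.93 TPM on the ground and 7.06, 8.02 and 8.80 TPM after flight (0.03 ± 0.10, adjusted p = 0.875).

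Junb (chromosome 8, 84974484 to 84978718), an AP-1 subunit that can also hold back Jun, rose in eWAT of WT mice, from 7.33, 12.3 and 17 TPM to 12.83, 18.8 and 34.75 TPM, with 3 of 6 flown mice above the ground range (1.66-fold, 0.63 ± 0.18, adjusted p = 0.0255). The call was lost without any 1 of FL03, FL10, GC03, GC07 or GC08 (adjusted p up to 0.0813), with FL04 included (adjusted p = 0.0671) and with only the WT groups in the fit (adjusted p = 0.0798). Nrf2-KO mice had 10.9, 14.3 and 17.36 TPM on the ground and 13.38, 14.23, 12.41, 16.1 and 15.63 TPM after flight, within the ground range. In Thy the 5 FL_KO mice (30.48 to 38.61 TPM) were above the 6 GC_KO mice (19.45 to 29.42 TPM), but Junb was not called (0.23 ± 0.09, adjusted p = 0.0606).

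Egr1, a zinc finger factor and the gene with the highest level in Cbr, rose in eWAT of WT mice. Ground mice had 6.89, 9.98 and 14.69 TPM and flown mice 18.34, 23.9 and 32.34 TPM, with no overlap (2.38-fold, 1.16 ± 0.24, adjusted p = 0.00297), and the call was kept in all 23 fits without 1 mouse. In Nrf2-KO mice eWAT held 8.95, 14.5 and 16.36 TPM on the ground. FL02, FL11 and FL12 were above this range with 24.23, 33.84 and 25.8 TPM, and FL01 and FL09 within it with 10.1 and 9.33 TPM (0.64 ± 0.25, adjusted p = 0.123). In iBAT, Egr1 was at 1.32, 4.32 and 18.48 TPM in GC_WT and 7.35, 18.1 and 40.57 TPM in FL_WT, and was not called (1.37 ± 0.56, adjusted p = 0.0887).

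Egr2 (chromosome 10, 67535475 to 67542188), known from hindbrain patterning, myelination and tolerance of T cells, rose in iBAT of Nrf2-KO mice, from 0.03, 0.08 and 0.22 TPM to 0.66, 0.32, 0.16, 0.47 and 0.34 TPM. Of the flown mice, 4 of 5 were above every ground mouse (4.11-fold, 1.66 ± 0.57, adjusted p = 0.0287), at a level under 1 TPM. The call was lost with no filter on low counts (adjusted p = 0.0531) and without FL01, GC02, GC04 or GC12 (adjusted p up to 0.101).

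Ier2 (chromosome 8, 84661331 to 84662852) and Nr4a1 (chromosome 15, 101254269 to 101274795) rose by small amounts in Thy of Nrf2-KO mice. Ier2 was at 7.14, 9.30 and 11.58 TPM in GC_KO and 14.86, 12.28, 14.9, 13.0 and 12.61 TPM in FL_KO, with no overlap (1.46-fold, 0.29 ± 0.11, adjusted p = 0.0362). This call was lost in 6 of 23 fits without 1 mouse (each of FL01, FL09, GC02, GC04, GC09 and GC12, adjusted p up to 0.104), with no filter (adjusted p = 0.0714) and with FL04 included (adjusted p = 0.0708). Nr4a1 was at 15.25, 18.2 and 21.33 TPM in GC_KO and 31.01, 23.23, 28.16, 29.0 and 19.81 TPM in FL_KO, with 4 of 5 flown mice above the ground range (1.44-fold, 0.27 ± 0.08, adjusted p = 0.0129). In WT mice, all 6 flown mice (22.33 to 30.05 TPM) were above all ground mice (16.69 to 21.22 TPM), in values that include the shift of TPM given above. Nr4a1 was not called there (0.20 ± 0.08, adjusted p = 0.0650). In iBAT, Nr4a1 ranged from 1.72 to 150.19 TPM over 23 mice and was not called in either genotype.

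Arc (chromosome 15, 74669083 to 74672570), best known at synapses, was the member whose calls went in both directions. In eWAT it was at 0.30, 0.50 and 0.68 TPM in GC_WT and 0.80, 1.49 and 2.32 TPM in FL_WT, with no overlap (3.13-fold, 1.55 ± 0.41, adjusted p = 0.0149). In Nrf2-KO mice eWAT held 0.42, 0.72 and 1.33 TPM on the ground, and of the flown mice FL01 and FL02 were above this range with 3.03 and 3.48 TPM (1.21 ± 0.41, adjusted p = 0.0736). In iBAT of Nrf2-KO mice Arc rose from 0.10, 0.26 and 0.57 TPM to 2.55, 1.55, 0.64, 1.19 and 1.63 TPM, with no overlap (5.15-fold, 1.94 ± 0.55, adjusted p = 0.00997). In iBAT of WT mice it was at 0.05, 0.27 and 0.65 TPM and 0.45, 0.86 and 2.83 TPM (1.49 ± 0.53, adjusted p = 0.0538).

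In Thy, Arc fell with flight. GC_WT mice had 5.44, 5.61 and 6.09 TPM and FL_WT mice 3.91, 4.45 and 4.93 TPM, with no overlap (ratio of means 0.784, log2 fold change -0.58 ± 0.09, adjusted p = 4.59e-05). GC_KO mice had 3.74, 4.82 and 5.6 TPM and FL_KO mice 4.81, 3.82, 4.5, 3.73 and 4.18 TPM, which overlapped (ratio 0.878, -0.44 ± 0.09, adjusted p = 0.000575). With limma on log2(TPM + 1) the Nrf2-KO change was -0.15 and not called (adjusted p = 0.213). In Spl of WT mice Arc was at 3.02 to 3.79 TPM on the ground and 2.08 to 3.15 TPM after flight (-0.35 ± 0.11, adjusted p = 0.0845).

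**Figure D3:**
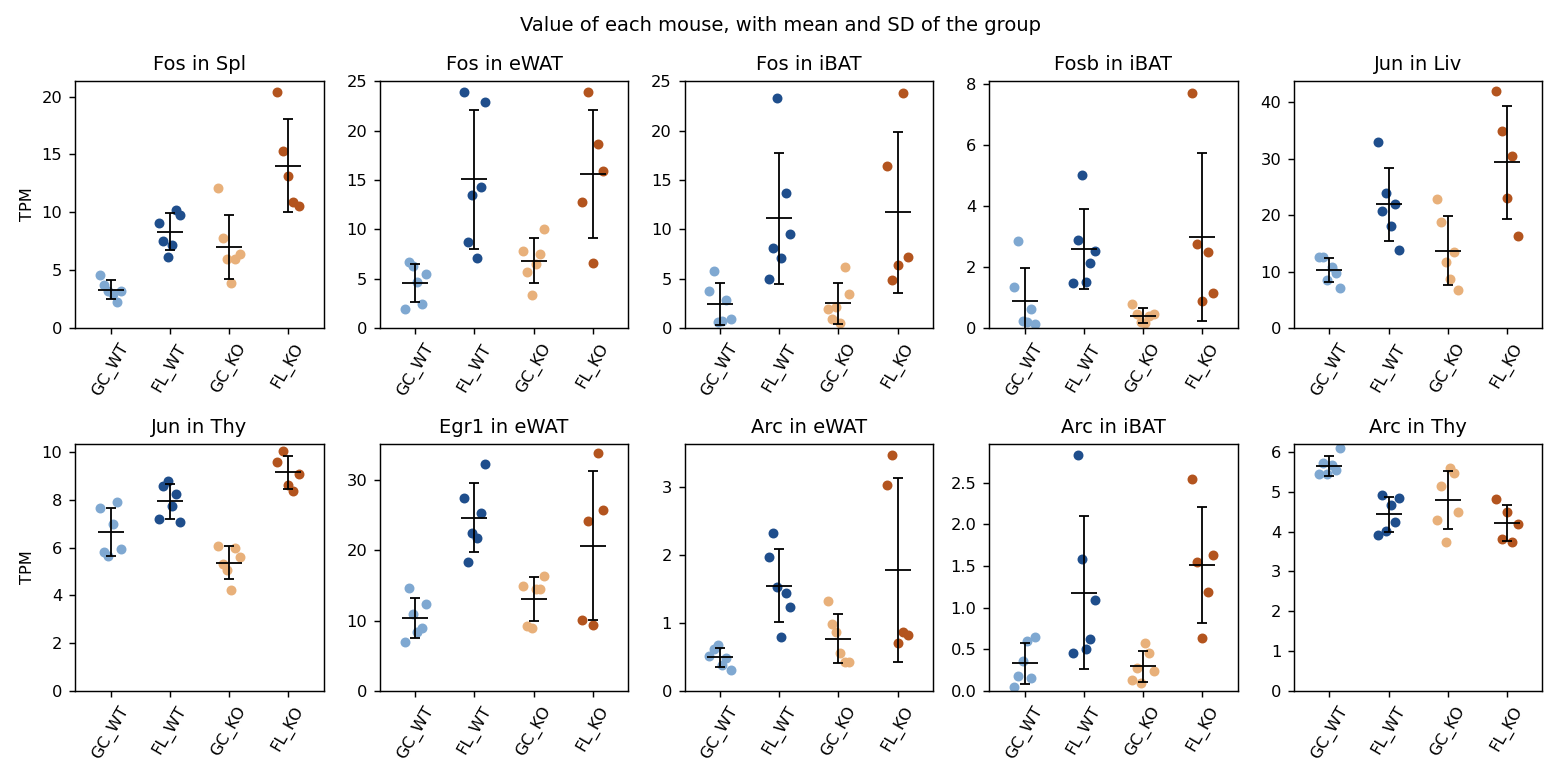
TPM of each mouse in the 4 groups, with the mean and SD, for 10 pairs of gene and tissue called in at least 1 flight comparison. Fos in Spl and eWAT, Jun in Liv, Egr1 in eWAT and Arc in eWAT do not overlap between GC_WT and FL_WT, and Arc in Thy is the only panel in which flown WT mice are lower.

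Npas4 (chromosome 19, 4984355 to 4990316), the neuronal member, was not called with flight in any tissue tested. In Cbr it was at 14.03, 18.9 and 26.54 TPM in GC_WT, 17.72, 23.9 and 34.07 TPM in FL_WT, 11.19, 15.0 and 25.0 TPM in GC_KO, and 24.42, 24.7, 23.5, 22.11 and 20.88 TPM in FL_KO (in Nrf2-KO mice 0.53 ± 0.19, adjusted p = 0.805, unadjusted p = 0.00973). The 5 FL_KO mice lay within 20.88 to 24.7 TPM, inside the GC_KO range. Fos in Cbr was at 23.46, 32.2 and 46.46 TPM in GC_WT, 25.75, 35.9 and 42.97 TPM in FL_WT, 15.85, 27.8 and 59.27 TPM in GC_KO, and 50.12, 41.37, 35.24, 34.39 and 32.19 TPM in FL_KO, and was not called (0.34 ± 0.25 in Nrf2-KO mice, adjusted p = 0.965). Egr1 in Cbr was at 235.65 to 385.58 TPM in GC_KO and 324.25 to 450.91 TPM in FL_KO (0.35 ± 0.12, adjusted p = 0.750, unadjusted p = 0.00550). Of the 10 genes in Cbr, 9 had positive changes in each genotype. The median was 0.06 in WT and 0.35 in Nrf2-KO mice, against -0.00017 and -0.0013 over all genes. The share of all genes above 0 was not counted, and members that vary together are not separate observations.

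Kid had only 3 mice per group, and no member was called there in either genotype. Fosb was at 0.14, 0.29 and 0.10 TPM in the 3 GC_WT mice and 0.74, 0.83 and 1.07 TPM in the 3 FL_WT mice, with no overlap (2.42 ± 0.71, adjusted p = 0.376, unadjusted p = 0.00475). Fos was at 1.3, 4.41 and 1.91 TPM and 5.57, 11.08 and 14.46 TPM, also without overlap (1.95 ± 0.63, adjusted p = 0.451). Egr2 was at 0.19, 0.21 and 0.15 TPM and 0.55, 0.70 and 0.67 TPM (1.73 ± 0.47, adjusted p = 0.333). The median change of the 9 genes tested in Kid was 1.27 in WT and 0.58 in Nrf2-KO mice, against medians of 0.00 and 0.01 over all genes. In TpB, Fos ranged from 7.64 to 99.63 TPM over 23 mice, and FL_KO mice had 99.63, 54.29, 30.43, 85.46 and 53.74 TPM against 10.59, 21.2 and 75.81 TPM in GC_KO (1.06 ± 0.54, adjusted p = 0.999).

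Loss of Nrf2 was next examined in ground mice and in flown mice. On the ground, 1 of 83 pairs was called, Fos in Spl, which was higher in GC_KO (3.94, 6.19 and 12.11 TPM) than in GC_WT (2.28, 3.23 and 4.60 TPM), with 5 of 6 Nrf2-KO mice above all WT mice (2.11-fold, 1.07 ± 0.22, adjusted p = 0.0110). It was 1 of 10 genes in Spl, where 0.6% of all genes were called higher, and the call was kept in all 23 fits without 1 mouse. In the other 8 tissues 1.72% of all genes were called and no member was (13 pairs at an unadjusted p under 0.05 in the 9 tissues, 2 called by DESeq2, 1 by limma). DESeq2 also called Fosb in Kid, which was at 0.67, 1.57 and 0.15 TPM in GC_KO and 0.14, 0.29 and 0.10 TPM in GC_WT (DESeq2 log2 fold change 2.34 ± 0.68, adjusted p = 0.0280, against 0.196 in edgeR). In Thy all GC_KO mice were below all GC_WT mice in Fos (-0.71 ± 0.23, adjusted p = 0.0842).

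Among flown mice no member was called by genotype in edgeR (10 pairs at an unadjusted p under 0.05), where 1.36% of all genes were called over the 9 tissues, and DESeq2 called 3 members, where it called 2.1% of all genes. These were Fos in Spl (0.81 ± 0.21, edgeR adjusted p = 0.0615, DESeq2 adjusted p = 0.0153), Npas4 in Spl (0.78 ± 0.22, 0.0988 and 0.0379) and Jun in Kid (0.74 ± 0.20, 0.10 and 0.0125). In these 3 pairs, picked by their calls, each FL_KO mouse was above each FL_WT mouse, in Kid with only 3 mice a group. The share of all genes separated in this way was not counted. Npas4 in Spl was at 3.61, 2.51, 2.62, 2.66 and 2.56 TPM in FL_KO and 1.34 to 2.23 TPM in FL_WT, and Jun in Kid at 38.92, 31.74 and 33.31 TPM and 19.63, 21.11 and 21.11 TPM.

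Whether the flight difference itself differed between genotypes was tested as an interaction. No member was called by edgeR, DESeq2 or limma (6 pairs at an unadjusted p under 0.05 in edgeR), and over all genes 0% were called by edgeR and 0.098% by DESeq2. The smallest adjusted p of a member was that of Jun in Thy (0.47 ± 0.15, adjusted p = 0.398), followed by Fos in Thy (0.93 ± 0.33, adjusted p = 0.436) and Junb in eWAT (-0.62 ± 0.27, adjusted p = 0.565). A gene called in 1 genotype and not in the other, such as Egr1 in eWAT or Fos in Thy, was therefore not shown to differ between the genotypes in its change with flight.

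Markers of other cell types moved with flight in the tissues with most calls. In eWAT the macrophage list summed to 405.02 to 572.63 TPM in GC_WT and 619.85 to 1082.74 TPM in FL_WT, without overlap, and to 451.45 to 641.26 TPM in GC_KO and 506.83 to 719.95 TPM in FL_KO. The endothelial list (5 genes) of eWAT was at 378.58 to 571.88 TPM in GC_WT and 612.78 to 949.1 TPM in FL_WT. In iBAT the macrophage list was at 11.46 to 21.66 TPM in GC_KO and 24.14 to 53.46 TPM in FL_KO, and the smooth muscle list (4 genes) at 25.03 to 36.15 and 44.22 to 232.6 TPM. All 5 genes of the macrophage and endothelial lists reached 1 TPM in both tissues. The part of these cell types in the results was not tested.

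To see whether the members rise and fall together from mouse to mouse within a group, Pearson's r with Fos was computed on log2(TPM + 1) after removal of the group means, over 23 mice in 7 tissues. P-values came from 100000 permutations of mice within groups and were adjusted over all genes tested in the tissue. In TpB 7 of the 9 other members varied with Fos, where 37.5% of all genes were called with r above 0 and the median r of all genes was 0.24. Fosb followed Fos most closely (r = 0.965, rho = 0.949, adjusted p = 0.000233 for r and 0.000438 for rho), and then Npas4 (r = 0.872, rho = 0.806), Egr1 (r = 0.842, rho = 0.841), Arc (r = 0.836, rho = 0.798), Nr4a1 (r = 0.796, rho = 0.828), Ier2 (r = 0.626, rho = 0.652) and Jun (r = 0.516, rho = 0.599, adjusted p = 0.0452 and 0.0175, the highest among the 7). Junb (r = 0.294) and Egr2 (r = -0.413) were not called. Without GC10 and FL01, the mice farthest from the median of Fos, r was 0.968 for Fosb, 0.891 for Npas4, 0.828 for Arc and 0.741 for Nr4a1. On log2 CPM with TMM factors 5 members kept a call with r above 0 (25.6% of all genes, median r of all genes -0.07), Jun (r = 0.201) and Ier2 (r = 0.316) lost it, and Egr2 was called with r = -0.572. The smallest p that these permutations can give is 1e-05.

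In eWAT 4 of 9 members varied with Fos, against 8.4% of all genes called with r above 0. On log2 CPM with TMM factors only Junb and Egr1 were called there (1.19% of all genes), while Egr2 (adjusted p = 0.0553) and Ier2 (adjusted p = 0.0756) were not, and the median r of all genes was -0.01 instead of 0.25. Junb (r = 0.775, rho = 0.779, adjusted p = 0.0030 and 0.00588), Egr1 (r = 0.768, rho = 0.824), Ier2 (r = 0.754, rho = 0.772) and Egr2 (r = 0.743, rho = 0.758) were called, and Nr4a1 was not (r = 0.580, adjusted p = 0.0515). With FL02 and FL03 left out, r was between 0.711 and 0.797 for these 4. Arc (r = 0.204) and Fosb (r = 0.332), both higher in flown WT mice in this tissue, did not follow Fos closely within groups. In Cbr all 9 members had a positive r with a median of 0.766 against 0.09 over all genes, and none was called. Egr2 (r = 0.917, rho = 0.893) and Junb (r = 0.888, rho = 0.869) each reached an adjusted p of 0.0504, the smallest of any gene in that tissue, and 4 members were called once FL04 was included. In Spl, Liv, iBAT and Thy no member was called, with 3, 4, 5 and 2 at an unadjusted p under 0.05. The highest were Nr4a1 in Spl (r = 0.746, adjusted p = 0.0666) and in Liv (r = 0.779, adjusted p = 1.0), and Junb in iBAT (r = 0.659, adjusted p = 0.207).

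**Figure D4:**
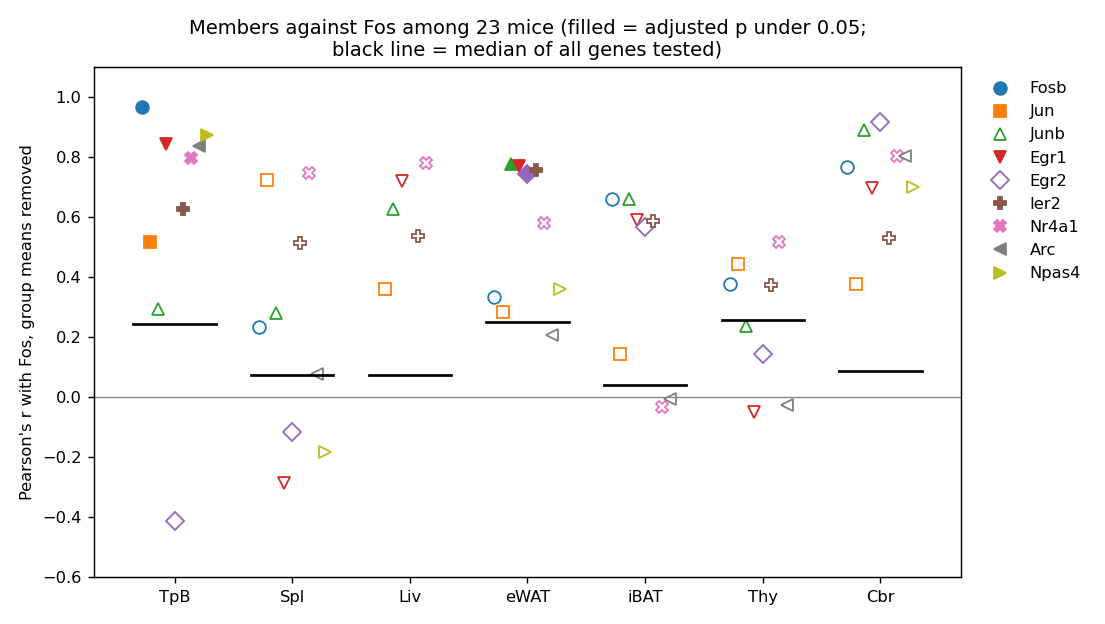
Pearson's r of each member with Fos among 23 mice in 7 tissues, group means removed, filled where the adjusted p was under 0.05, with the median of all genes as a black line. Filled symbols are found in TpB (7) and eWAT (4), and all 9 members are above 0 in Cbr.

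The cerebrum list in TpB varied with the members. Its summed level ran from 355.5 to 2725.41 TPM among mice, and the median r of all genes with it was 0.374. For members r was 0.948 for Arc, 0.883 for Npas4, 0.854 for Egr1, 0.768 for Fos, 0.764 for Fosb and 0.571 for Ier2. It was 0.499 for Nr4a1, 0.229 for Jun, 0.041 for Junb and -0.297 for Egr2. After the level of the list was removed too, r with Fos was 0.915 for Fosb, 0.743 for Nr4a1, 0.646 for Npas4, 0.557 for Egr1, 0.545 for Jun, 0.527 for Arc and 0.356 for Ier2, and the median of all genes was -0.01. The library numbers of TpB fall into a lower and a higher range. In the lower range (11 mice) Fos was at 12.27 to 99.63 TPM with a median of 22.8, and in the higher range (12 mice) at 7.64 to 96.38 TPM with a median of 43.4. Within the ranges, r with Fos was 0.970 and 0.973 for Fosb, 0.901 and 0.961 for Nr4a1, 0.823 and 0.892 for Arc, 0.839 and 0.904 for Npas4, and 0.240 and 0.582 for Jun. The median r of all genes with Fos was 0.274 in both ranges. In eWAT, the bone list, which is led there by collagen genes, had r = 0.780 and the macrophage list r = 0.670 with Fos. The median r of all genes with these lists was 0.332 and 0.228. With the bone list removed r with Fos was 0.338 for Junb, 0.569 for Egr1, 0.410 for Ier2 and 0.477 for Egr2, and with the macrophage list removed 0.563, 0.629, 0.649 and 0.547. The medians of all genes were then -0.02 and 0.13.

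**Figure D5:**
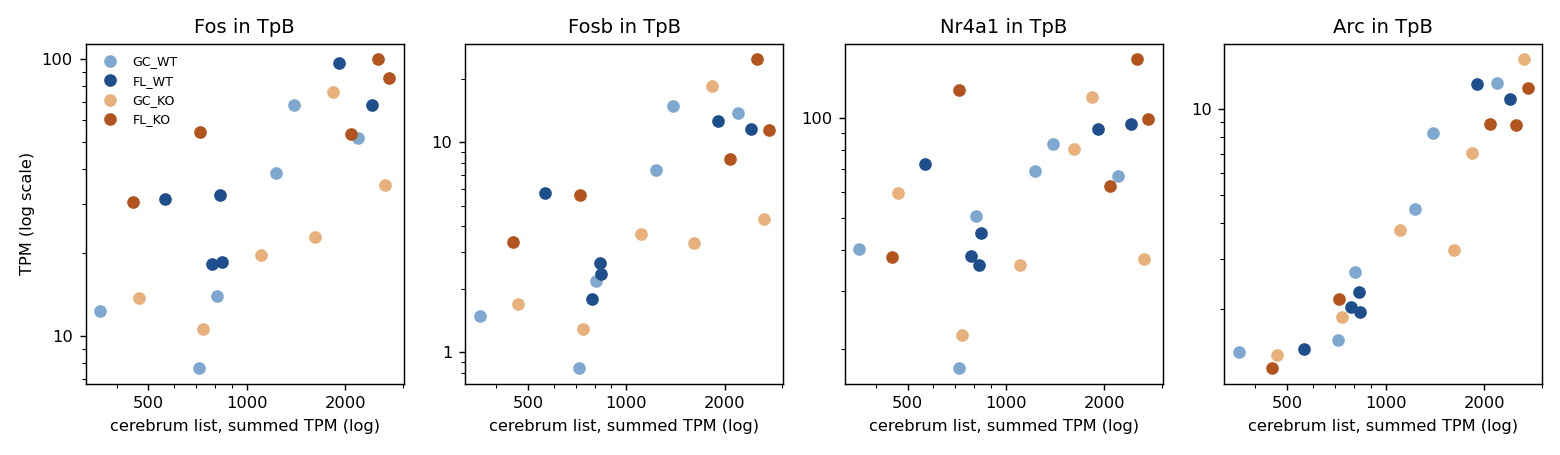
TPM of Fos, Fosb, Nr4a1 and Arc in TpB (log axis) against the summed TPM of the cerebrum list (log axis), each point 1 of 23 mice, coloured by group. Of the genes shown, Arc follows the list most closely (r = 0.948), and Nr4a1 least (r = 0.499, group means removed). The median r of all genes with the list is 0.374.

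The genes most like Fos among non-members with a mean of at least 5 TPM were Zcchc14 (r = 0.918), Pptc7 (r = 0.917) and Tbc1d16 (r = 0.914) in TpB, Pdlim5 (r = 0.885), Hspg2 (r = 0.871) and Itgb1 (r = 0.851) in eWAT, and Mier3 (r = 0.824), Zfand2a (r = 0.810) and Tent5a (r = 0.810) in Spl, each over 23 mice. All but Zfand2a (adjusted p = 0.0647) were called. In Cbr they were Egr4 (r = 0.862), a relative of Egr1, Pim3 (r = 0.858) and Clk1 (r = 0.856), each with an adjusted p of 0.0504. In Liv (Tmem106c, Ftl1-ps1, Galnt11), iBAT (Nenf, Fxyd1, Fkbp3) and Thy (Ttpal, Frmd6, Irf2bpl) the leading genes had r of 0.673 to 0.785 and were not called.

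Fos was also compared between tissues of the same mouse, over 21 pairs of 7 tissues with group means removed. Pearson's r passed the threshold for Spl with Cbr (r = 0.706, permutation p = 0.00122, adjusted p = 0.0217) and Liv with Thy (r = 0.599, permutation p = 0.00207, adjusted p = 0.0217). Spearman's rho did not (rho = 0.522 and 0.557, adjusted p = 0.213 and 0.164). Without the 2 mice farthest from the median r was 0.695 and 0.501. TpB, where Fos spread most, had r = 0.178 with Spl (adjusted p = 0.866) and 0.403 with Liv (adjusted p = 0.270).

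Other early response genes, 87 genes in 11 lists of relatives, feedback regulators, targets and upstream kinases, gave 702 tested pairs of gene and tissue. With flight, 30 pairs were higher and 19 lower in WT mice (6.98% of pairs), where 6.54% of all genes were called over the 9 tissues. In Nrf2-KO mice 45 pairs rose and 23 fell (9.69%, against 8.91% of all genes). Both shares were near those of all genes. On the ground 5 were higher and 2 lower with loss of Nrf2 (0.997%, against 1.65% of all genes), and none was called by genotype in flight or in the interaction by edgeR. As for the members, none was called in TpB, MdB, Kid or Cbr with flight. By tissue, WT calls were 1 higher and 1 lower of 80 in Spl (2.26% of all genes called in either direction), 3 and 1 of 71 in Liv (3.45%), 7 and 2 of 81 in eWAT (13.3%), 9 and 3 of 73 in iBAT (19.2%), and 10 and 12 of 79 in Thy (22.8%). In Nrf2-KO mice they were 6 and 3 in eWAT (7.74% of all genes), 16 and 6 in iBAT (33.5%) and 23 and 14 in Thy (38.2%).

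By list, the other AP-1 members had 4 pairs higher and 1 lower in WT and 5 and 1 in Nrf2-KO mice of 63 tested. The other EGR and NR4A genes had 2 higher in WT and 4 in Nrf2-KO mice of 26, and the matricellular and cytoskeletal targets of serum response factor 5 and 2, and 9 and 2, of 63. DUSP phosphatases, which switch off MAP kinases, had 4 higher of 39 in WT mice and 0 in Nrf2-KO mice, and the interaction called none of them. These counts are to be read against the 6.54% and 8.91% of all genes called in WT and Nrf2-KO mice. The KLF genes had 2 and 1, and 4 and 2, of 36, the other IER genes 1 and 0, and 2 and 1, of 26, and the mRNA decay genes 2 and 3, and 2 and 2, of 45. The NF-kB and cytokine feedback genes had 3 higher and 2 lower of 47 in both genotypes. The neuronal effector genes had 0 and 3, and 1 and 1, of 60, the upstream kinases and factors 2 and 4, and 6 and 8, of 162, and the remaining early genes 5 and 3, and 9 and 4, of 135.

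In eWAT the AP-1 gene Fosl1 rose in both genotypes, from 0.205 to 2.57 TPM in WT (mean, 3.5 ± 0.66, adjusted p = 0.00109) and from 0.252 to 1.79 TPM in Nrf2-KO mice (2.79 ± 0.67, adjusted p = 0.0127). In WT eWAT the chemokine gene Cxcl1 (2.52 ± 0.42) and the small Maf gene Maff (1.31 ± 0.30) rose too, and in Nrf2-KO eWAT Vcl rose (0.36 ± 0.09) and Mkl2 fell (-0.41 ± 0.07). In iBAT the phosphatase gene Dusp1 (1.06 ± 0.23) and Actb (0.57 ± 0.13) rose in WT mice, Srf, serum response factor itself (0.69 ± 0.14), and Egr3 (2.76 ± 0.57) rose in Nrf2-KO mice, and Rhob, a small GTPase gene, fell in both (-0.76 ± 0.17 and -0.95 ± 0.18). In Thy, Csrnp1 fell in both genotypes (-0.39 ± 0.06 and -0.44 ± 0.06), Apold1 (-1.14 ± 0.18) and Btg2 (-0.37 ± 0.06) fell in WT mice, and Ptgs2, cyclooxygenase 2 (1.32 ± 0.19), and Zfp36l1 (0.38 ± 0.06) rose in Nrf2-KO mice.

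In Liv of WT mice Zfp36l1 (0.65 ± 0.14) and Nfkbiz (0.50 ± 0.12) rose and Map2k1 fell (-0.22 ± 0.06), and in Spl Tagln rose (0.60 ± 0.13) and Rps6ka3 fell (-0.26 ± 0.07). Among ground mice Myc was lower in Liv of GC_KO than of GC_WT (2.59 ± 0.73 against 12.9 ± 9.78 TPM, mean ± SD, n = 6 each, -2.32 ± 0.49, adjusted p = 0.00699). In iBAT Dusp1 was higher (1.12 ± 0.23) and Nr4a3, a relative of Nr4a1, lower (-1.92 ± 0.50) without Nrf2. Gadd45g (0.94 ± 0.25) and Mkl2 (0.27 ± 0.07) were higher in eWAT of GC_KO mice, Mkl1 (0.47 ± 0.12) in Liv and Rps6ka3 (0.19 ± 0.04) in Thy.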

How the data were processed

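RNA from 9 tissues of 24 mice gave 192 libraries, of which 184 were used after mouse FL04 was left out, as in the study. Per the labels and the study's methods, libraries were strand-specific, Thy from total RNA depleted of ribosomal RNA and the others from poly(A) RNA. Reads were aligned with STAR 2.6.1 to mm10 and quantified with RSEM 1.3.1, per the submitters' processing notes, and the authors deposited expected counts and TPM for 54752 genes. The 192 FPKM columns were not used. TPM is relative to all transcripts of a library.

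Expected counts were rounded, and each tissue was tested with edgeR 4.0.16 under R 4.3.3 (filterByExpr by group, TMM factors, quasi-likelihood test, the 4 groups in 1 fit), with Benjamini-Hochberg adjustment over all genes tested and a threshold of 0.05. The test was checked on simulated counts. Alternatives were limma 3.58.1 for genes with a mean of at least 5 TPM, on log2(TPM + 1), DESeq2 1.42.0, other size factors, no filter, FL04 included, only the groups compared, the mouse number as a block, and each mouse left out in turn. Leaving out mice of groups of 6, leaving out the iBAT libraries with skeletal muscle transcripts (over 1000 TPM), removing marker lists from r, and comparing mice of the same number were added after seeing the data. Groups and mouse numbers came from the labels. Libraries of a group are separate mice, and no 2 of them were alike within counting error. Mouse numbers were taken to pair samples only in Liv of Nrf2-KO mice, where all 5 pairs deviated together (r of 0.301 to 0.496). All pairs were also above 0 in Liv of WT mice (0.0207 to 0.409) and in iBAT of Nrf2-KO mice (0.0713 to 0.316). The same held in MdB and Kid, with 1 or 2 pairs a genotype, so Liv of Nrf2-KO mice was not alone in this. The choice of Liv of Nrf2-KO mice came from these same data, and the blocked value is printed for Jun there. Members and gene lists were chosen with earlier results of these data known. Named non-members were the 3 genes with the smallest adjusted p per tissue and comparison among called genes of the early response lists, and the 3 genes of highest r with Fos and a mean of at least 5 TPM. Depth was 8007523 to 16308175 counts per library, which limits members under 1 TPM to few counts.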

Additional observations from a re-analysis of the deposited data

Results flagged for a closer look

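Fos in Thy of the GC_WT mouse GC08 was at 4.28 TPM, and the other 5 GC_WT mice were at 1.93 to 2.30 TPM. The gap to the nearest mouse was 0.798 of the range of the group on log2(TPM + 1). It was the 1 group with a sample far from the rest among 64 checked, and chance gives about 1 in 20.

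Arc changed in opposite directions with flight in 2 tissues of WT mice, with a log2 fold change of 1.55 in eWAT, where every flown mouse was above every ground mouse, and -0.58 in Thy, where every flown mouse was below. The difference between the tissues was not tested.

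Mouse FL04, which was left out of the main comparisons, stood above all other mice in 7 pairs of gene and tissue. It had 31.05 TPM of Junb in Liv (highest other mouse 24.45), 17.11 TPM of Junb in iBAT (12.62), 49.88 TPM of Egr1 in iBAT (40.57), 28.09 TPM of Ier2 in eWAT (27.27) and 3.74 TPM of Arc in eWAT (3.48). In MdB it had 1.02 TPM of Egr2 (0.74) and 1.05 TPM of Npas4 (0.80).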

How the results depend on the processing

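Over 21 single results and 627 alternatives, 554 kept direction and call, 73 kept direction and lost the call, and 0 reversed. Member pairs called with flight in WT mice numbered 9 of 83 tested, and 15 of 63 with limma on log2(TPM + 1). The limma values include the shift of TPM in flown mice given above, so these are unlike measures. Calls that limma added in WT mice lay in iBAT and Thy, as for Jun in Thy (0.23 in limma, 0.03 in edgeR). Shares of all genes called under the alternatives are not given here, for these counts or those below. Those called by genotype on the ground numbered 1, and 2 with DESeq2 and with no filter. Among flown mice 0 were called by genotype in edgeR (10 at an unadjusted p under 0.05), and 3 with DESeq2, 1 with no filter, 1 with FL04 included and 2 with only the groups compared. Leaving out 1 mouse gave 7 to 12 calls with flight in WT mice, 8 to 13 in Nrf2-KO mice, 1 to 2 by genotype on the ground, 0 to 1 in flight, 0 to 0 in the interaction, and 115 to 133 calls among the other early response genes (124 in all). The ground count was 2 without GC12 in Kid, FL06 in Thy or GC01 in Thy, and the count in flight was 1 without GC12 or GC02 in Kid or GC01 or GC09 in Spl. With the mouse number as a replicate block, 12 pairs were called in WT and 14 in Nrf2-KO mice, 0 in the interaction, and 159 among the other early response genes. The block removed the Nrf2-KO calls of Fos in eWAT (adjusted p = 0.0942) and Ier2 in Thy (adjusted p = 0.0841) and added 8 others, 1 of them Jun in Liv. Genotype comparisons could not be blocked, since each number belongs to 1 genotype. Members that vary with Fos numbered 11 over 7 tissues, 17 with FL04 included and 8 on CPM. Pairs of tissues in which Fos varied together numbered 2, and 1 on CPM and 1 with FL04 included. The cause of these changes was not tested. Depth limits the members under 1 TPM, and 3 mice a group limit Kid and MdB.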

Other observations

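Nr4a1 in iBAT, chosen here after its values were seen, was highest in mice with low numbers. The 6 highest of 23 mice were FL01 (150.19 TPM), FL02 (121.43), GC02 (120.03), FL03 (108.73), GC03 (69.06) and GC01 (49.75). Ground mice 01 to 06 had 9.52 to 120.03 TPM and ground mice 07 to 12 had 1.72 to 8.60 TPM, without overlap. Flown mice 01 to 06 had 13.76 to 150.19 TPM and flown mice 07 to 12 had 3.08 to 30.9 TPM, which overlapped. The cut between 06 and 07 was set with these values known, and how many of all genes separate at it was not counted. No effect of the mouse number can be read from this split.

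Flown and ground mice of the same number were compared over 11 pairs, with group means removed, in 7 tissues. No member passed the threshold after adjustment over all genes. Jun in Liv came closest (r = 0.849, permutation p = 0.00229, adjusted p = 0.0789, rho = 0.745, permutation p = 0.0265, and r = 0.760 without the 2 pairs farthest from the median). Nr4a1 in iBAT had r = 0.790 (adjusted p = 0.213), rho = 0.776 (permutation p = 0.0127) and r = 0.636 without 2 pairs. Over all genes 153 of 13433 were called in Liv and none in the other 6 tissues.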
